A study of Branchiostoma lanceolatum with 8 samples.

Results

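The regions described here are stretches of the amphioxus genome that were open to a different degree in ectodermal explants given Activin than in control explants at 11 hours post fertilization (hpf), and which had no counterpart among the regions that differed at 19 hpf. They were chosen by position alone: a region of the authors' 11 hpf list that shared not 1 bp with any region of the authors' 19 hpf list on the same scaffold. This gave 2253 of the 3897 regions listed at 11 hpf, or 57.8% (exact 95% interval 56.2 to 59.4%, which covers counting error only). They are called 11 hpf-only regions below. The other 1644 regions of the 11 hpf list, which overlapped a 19 hpf region, are called recurrent regions.

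The accessibility was measured in *Branchiostoma lanceolatum* by ATAC-seq, in which a transposase cuts and tags open chromatin. There were 2 libraries in each of 4 groups: explants given human recombinant Activin at 50 ng per mL at 11 hpf, control explants at 11 hpf, Activin explants at 19 hpf and control explants at 19 hpf. The labels do not say when Activin was added, how many explants entered a library, or whether libraries of 1 group were made from different spawnings. The lists of the 2 times thus come from separate Activin and separate control libraries.

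Activin is a secreted ligand of the TGF-beta family. It binds the same kind of receptors as Nodal, and these phosphorylate SMAD2 and SMAD3, which enter the nucleus and bind enhancers with partners such as FOXH1. Amphioxus is a cephalochordate, and its ectoderm forms epidermis unless it is diverted, for which Activin or Nodal signalling is 1 known route towards neural fate. Open chromatin marks promoters and enhancers, so a list of differential regions is a list of candidate regulatory sites. A region absent from the 19 hpf list is not shown to be equal in the explants at 19 hpf.

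Each region carries 1 signed log2 fold change from the authors' deposited tables, with no value per library, no error and no number of replicates. The tables do not name the numerator of the ratio, so positive and negative repeat the deposited sign and neither is read as opened or closed by Activin. Region names are numbers that were read as places in a wider ordered set, whose size is at least the highest number listed. The list at 11 hpf makes up at most 3.48% of a numbered set of at least 111831 regions, with 1.11% positive and 2.38% negative. The list at 19 hpf makes up at most 8.31% of at least 87262 regions, with 0.78% positive and 7.53% negative. Both lists went into the choice of the 11 hpf-only regions, and the signs and sizes come from the same fits. All shares, medians and distances below are therefore descriptions of the lists, with no test.

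The 11 hpf-only regions were close to evenly divided by sign. They held 1045 positive and 1208 negative regions, so that 46.4% were positive (95% interval 44.3 to 48.5%). Among recurrent regions 192 of 1644 were positive, or 11.7% (10.2 to 13.3%), and among all 11 hpf regions 31.7%. Seen from the other side, 84.5% of the 1237 positive regions at 11 hpf (82.3 to 86.5%) had no 19 hpf overlap, against 45.4% of the 2660 negative ones (43.5 to 47.3%). The 19 hpf list itself held 681 positive and 6571 negative regions. Together the 11 hpf-only regions lay on 593 scaffolds and covered 1.59 Mb, 0.784 Mb positive and 0.802 Mb negative.

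The fold changes of the 11 hpf-only regions were of the same order as those of the recurrent regions and slightly smaller. The median absolute log2 was 1.92 (quartiles 1.59 to 2.35), a 3.80-fold difference, against 2.11 (1.70 to 2.58), a 4.32-fold difference, in recurrent regions. Positive 11 hpf-only regions had a median of 1.80 (quartiles 1.52 to 2.20) and positive recurrent ones of 2.01 (1.67 to 2.41). Negative 11 hpf-only regions had 2.04 (1.67 to 2.49) and negative recurrent ones 2.12 (1.71 to 2.61). The quartile ranges overlapped widely in both signs. The smallest absolute value was 0.98 in the 11 hpf list and 1.44 in the 19 hpf list. Of the 11 hpf-only regions 333, or 14.8%, lay under 1.44, against 163 of the recurrent regions, or 9.91%. By sign these shares were 19.4% against 7.81% (15 of 192) for positive regions, and 10.8% against 10.2% for negative ones.

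**Figure D1:**
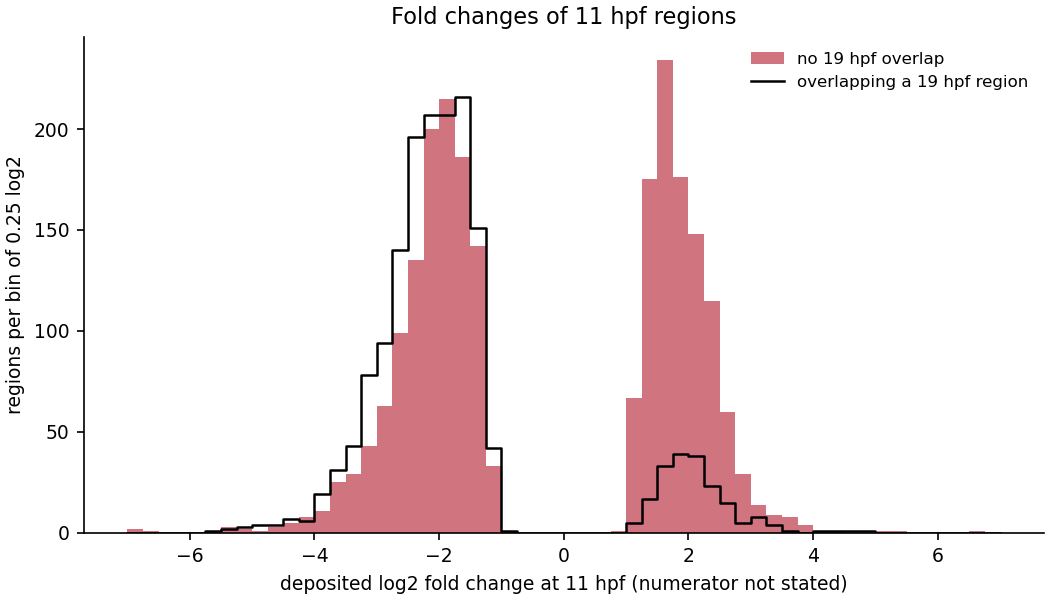
Number of 11 hpf regions per bin of 0.25 log2, with the deposited log2 fold change on the horizontal axis. Filled bars are the 2253 regions with no 19 hpf overlap and the black line the 1644 that overlap a 19 hpf region; the bars rise far above the line on the positive side (1045 against 192 regions) and mostly stay below it on the negative side (1208 against 1452).

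The share listed only at 11 hpf differed between the 2 signs at each absolute log2 under 4. Of positive regions under an absolute log2 of 1.5, 91.7% were listed only at 11 hpf, and this share was 85.1% from 1.5 to 2, 81.2% from 2 to 2.5 and 81.7% from 2.5 to 3. It was 72.9% (35 of 48 regions) from 3 to 4 and 55.6% at 4 or more, where there were 5 of 9 regions and the 95% interval ran from 21.2 to 86.3%. Negative regions moved less, from 47.6% under 1.5 to 38.7% between 3 and 4, with 49.1% (26 of 53) at 4 or more. At each size under 4 the positive share was thus above the negative one by more than the width of either interval. Large early changes were also among the 11 hpf-only regions: 40 positive and 134 negative ones reached an absolute log2 of 3.

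**Figure D2:**
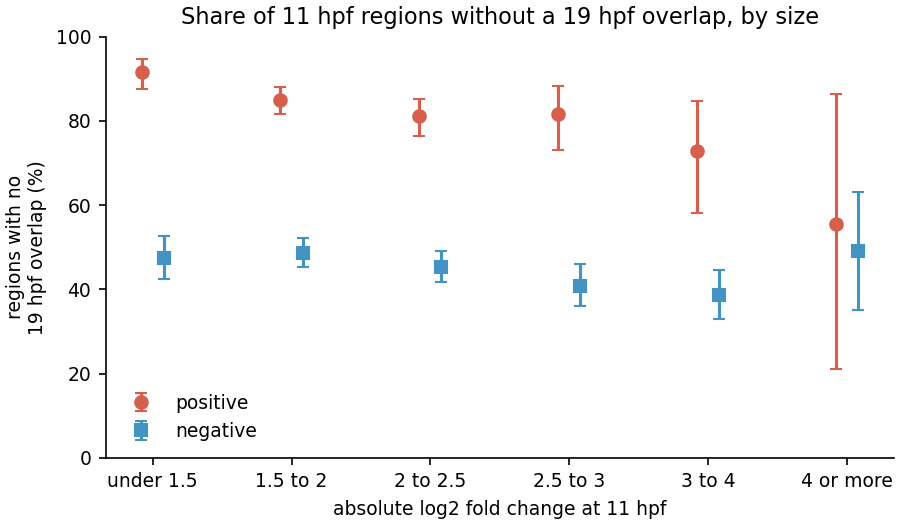
Share of 11 hpf regions with no 19 hpf overlap (percent) by absolute log2 fold change at 11 hpf, for positive regions (circles) and negative regions (squares), with exact 95% intervals. The positive share is 91.7% under 1.5 and 55.6% at 4 or more, and the negative share lies between 38.7% and 49.1%.

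Median widths differed from those of recurrent regions in opposite directions for the 2 signs. Positive 11 hpf-only regions had a median width of 606 bp (quartiles 377 to 980), against 555.5 bp (324 to 810) in positive recurrent regions. Negative 11 hpf-only regions had 538.5 bp (319.5 to 865), against 671 bp (412 to 1040) in negative recurrent ones. Among negative regions under 250 bp, 60.1% had no 19 hpf overlap, against 37.2% of those of 1000 to 2000 bp. A narrower region has less room to overlap another by 1 bp, and the part of width in these shares was not tested. Among positive regions the shares had no steady order, with 75.2% under 250 bp, 85.5% from 250 to 500 bp, 82.7% from 500 to 1000 bp, 90.7% from 1000 to 2000 bp and 84.2% at 2000 bp or more. The smallest absolute log2 listed among 11 hpf-only regions was 1.29 under 250 bp and 0.98 at 2000 bp or more, so the narrowest regions entered the list only with larger values. The widest 11 hpf-only region, of 3714 bp on Sc0000054 (1577951 to 1581664), was positive with a log2 of 1.73. The next were also positive: 3254 bp on Sc0000005 (3065084 to 3068337) with 1.18, and 3188 bp on Sc0000178 (53082 to 56269) with 0.98, the smallest positive value of all.

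The 6 strongest regions of each sign are given with their surroundings as single cases. Of all positive 11 hpf-only regions 27.6% lay within 10 kb of a 19 hpf region, and of all negative ones 48.4%. The largest positive value, 6.64 on Sc0000116 (284804 to 285321), was 57.0 kb from the closest 19 hpf region, which was negative (-3.06). The next, 5.45 on Sc0000112 (546693 to 547204), was 20.6 kb from a negative region (-1.80), and 5.16 on Sc0000003 (2283486 to 2283877) was 12.6 kb from a negative one (-1.86). Each of these 3 stood alone within 10 kb in the 11 hpf list as well. The fourth and the fifth had positive 19 hpf neighbours: 4.47 on Sc0000013 (1997266 to 1997627) lay 1.68 kb from a region of 2.39, and 4.12 on Sc0000102 (383464 to 383729) lay 10.1 kb from one of 2.18. The sixth, 3.98 on Sc0000114 (793942 to 794550), was 37.2 kb from a negative region (-2.20).

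Of the 6 most negative 11 hpf-only regions, 5 lay within 6.38 kb of a 19 hpf region. In all 6 the closest 19 hpf region was negative too, as it was for 96.9% of all negative 11 hpf-only regions within 10 kb of one. The most negative, -7.00 on Sc0000157 (101562 to 101758), was 379 bp from a 19 hpf region of -3.05. A region of -6.63 on Sc0000300 (124707 to 124854) was 1.02 kb from one of -2.79, and -5.55 on Sc0000005 (1910117 to 1910270) was 1.60 kb from one of -3.04. On Sc0000025 (1964711 to 1964903) a value of -5.46 lay 355 bp from one of -3.21, and on Sc0000008 (2626892 to 2627019) a value of -5.43 lay 6.38 kb from one of -2.98. The exception was -6.93 on Sc0000034 (1356446 to 1356717), at 44.0 kb from its closest 19 hpf region (-1.81). All 6 were narrow, 128 to 272 bp, whereas the 6 positive ones were 266 to 609 bp wide.

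The rule cuts between regions that just miss and just touch a 19 hpf region, and few regions lay at this edge. The 11 hpf-only regions closest to a 19 hpf region had gaps of 15 bp on Sc0000089 (968524 to 968769), 74 bp on Sc0000005 (1916434 to 1917136) and 114 bp on Sc0000013 (128442 to 128774). Their log2 values were -1.96, -2.15 and -3.20, next to 19 hpf values of -2.54, -2.13 and -3.15. The next lay on Sc0000043 (65111 to 65598, -1.40), 127 bp from a region of -2.88, and on Sc0000028 (1809511 to 1811118, -2.04), 130 bp from one of -2.92. The recurrent regions with the smallest overlaps shared 8 bp on Sc0000039 (2248919 to 2249377), 25 bp on Sc0000002 (7227288 to 7228306) and 64 bp on Sc0000011 (3604784 to 3604909). Their values at 11 hpf were -2.00, -1.38 and -2.27, and the 19 hpf values were -2.54, -2.76 and -2.68. The next shared 73 bp on Sc0001142 (516 to 2087), with 1.16 at 11 hpf and 1.87 at 19 hpf, and 76 bp on Sc0000037 (704679 to 704886), with -3.46 and -4.63. In all, 2 of the 11 hpf-only regions had a gap of at most 100 bp and 10 recurrent regions an overlap of at most 100 bp, and in all 12 the signs matched.

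Beyond this edge, positive and negative 11 hpf-only regions kept different distances from the 19 hpf regions. The median distance to the closest one was 21.7 kb for positive regions (quartiles 5.90 to 55.1 kb) and 8.88 kb for negative regions (1.71 to 32.7 kb). These values leave out 146 positive and 76 negative regions on 187 scaffolds with no 19 hpf region. On those scaffolds the last listed region ended at a median of 0.00369 Mb, so they offer little known room for a neighbour. Their regions stay in the shares that follow, and the part of scaffold length was not tested. Within 10 kb of a 19 hpf region lay 27.6% of the positive regions (288 of 1045) and 48.4% of the negative ones (585 of 1208), or 38.7% of all 11 hpf-only regions. The difference between the signs was also there at 5 kb, with 19.9% and 39.2%, and at 50 kb, with 62.9% and 77.5%.

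The sign of the closest 19 hpf region was nearly always shared by negative regions and often not by positive ones. Within 10 kb, 567 of 585 negative regions, or 96.9% (95.2 to 98.2%), had a negative closest 19 hpf region. A positive one was closest for 120 of 288 positive regions, or 41.7% (35.9 to 47.6%). These shares need to be read against the make-up of the 19 hpf list, which was 90.6% negative and 9.39% positive. Both matching shares were above the list's share of that sign, 41.7% against 9.39% and 96.9% against 90.6%. The list's share counts regions and not closest neighbours, which at 10 to 50 kb matched for 15.2% of positive and 88.6% of negative regions.

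This match faded with distance. At 0.2 to 0.5 kb, 13 of 23 positive regions, or 56.5%, matched their closest 19 hpf region, and at 0.5 to 1 kb 23 of 38, or 60.5%. The share was 42.1% at 1 to 5 kb (61 of 145), 27.5% at 5 to 10 kb (22 of 80), 15.2% at 10 to 50 kb (56 of 369) and 17.8% at 50 kb or more (43 of 242). Negative regions matched in 98.8% at 0.2 to 0.5 kb (84 of 85), 100% at 0.5 to 1 kb (106 of 106), 97.0% at 1 to 5 kb (257 of 265) and 92.0% at 5 to 10 kb (103 of 112). The share was 88.6% at 10 to 50 kb (311 of 351) and 86.7% at 50 kb or more (170 of 196), close to the list's 90.6%. Under 0.2 kb there were only 2 positive and 17 negative regions.

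**Figure D3:**
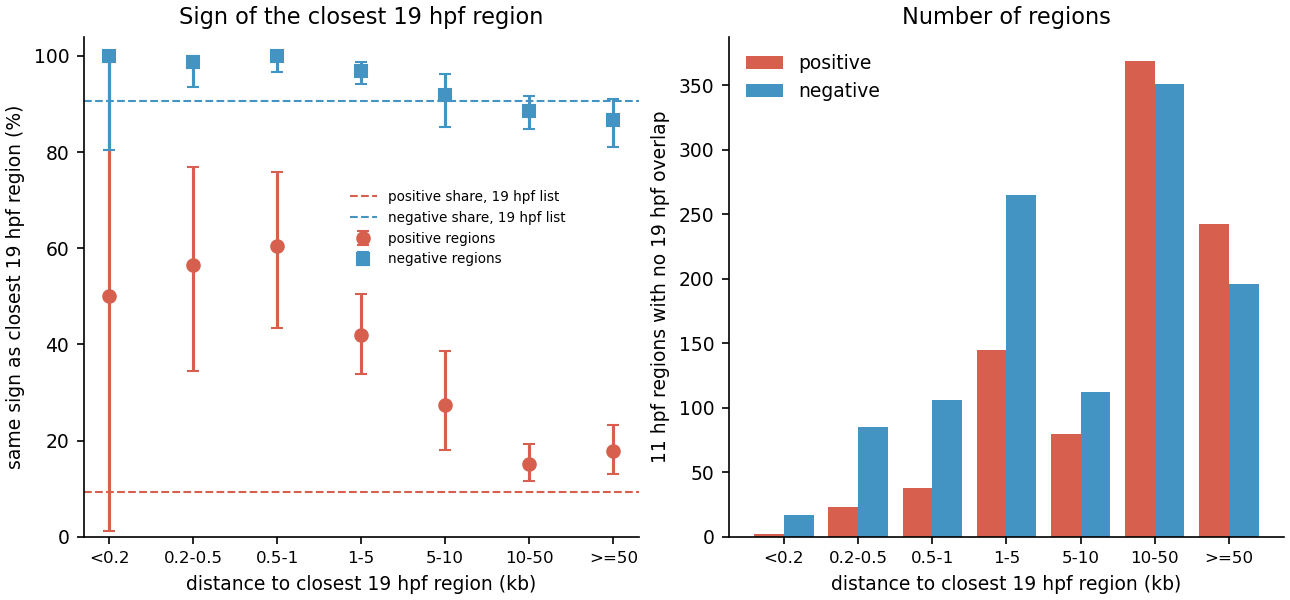
Left, share of 11 hpf-only regions (percent, exact 95% intervals) with the same sign as the closest 19 hpf region, by distance to it in kb, for positive (circles) and negative (squares) regions; dashed lines mark the positive (9.39%) and negative (90.6%) shares of the 19 hpf list. Right, the number of regions in each distance band; the positive match is 60.5% at 0.5 to 1 kb and 15.2% at 10 to 50 kb.

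The remaining 168 of the 288 positive regions within 10 kb of a 19 hpf region had a negative one as the closest. The closest such pair lay on Sc0000345, where a positive region (195996 to 196712, log2 2.20) was 155 bp from a negative 19 hpf region (196868 to 197109, -2.52). On Sc0000113 a positive region (323064 to 325101, 1.85) was 231 bp from a negative one (325333 to 325842, -1.78). The reverse held for 18 of 585 negative regions, or 3.08%, where 9.39% of the 19 hpf list was positive. The closest of these lay on Sc0000038 (589002 to 589362, -1.62), 344 bp from a positive 19 hpf region (1.94). The pairs with opposite signs were picked after their values were seen, as the closest of each kind.

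The 11 hpf-only regions were next compared with their neighbours in the 11 hpf list itself. Another 11 hpf region lay within 10 kb of 40.1% of the positive (419 of 1045) and of 49.3% of the negative 11 hpf-only regions (595 of 1208). In recurrent regions these shares were 41.7% for positive and 56.0% for negative ones. The closest such neighbour had the same sign for 93.6% of the positive and 97.1% of the negative 11 hpf-only regions. That neighbour was itself listed only at 11 hpf for 85.4% of the positive regions and for 56.0% of the negative ones. Of all positive and all negative 11 hpf regions 84.5% and 45.4% were of this kind. The order of the signs is thus that of the list. The positive share is at the list's level, and the negative share, 56.0% against 45.4%, is above it.

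When 11 hpf regions at most 10 kb apart were joined into groups, 1239 of the 2253 regions stood alone. A further 530 lay in 222 groups made of 11 hpf-only regions alone, and 484 lay in 309 groups that also held recurrent regions. Of the positive regions 59.9% stood alone, 29.4% were in groups of their own kind and 10.7% in groups with recurrent regions. Of the negative regions the shares were 50.7%, 18.5% and 30.8%. Of all 11 hpf regions, 15.5% of the positive and 54.6% of the negative ones were recurrent, so the order of the last shares is that of the list itself. Groups hardly mixed signs: 17 of the 222 and 17 of the 309 held both.

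**Figure D4:**
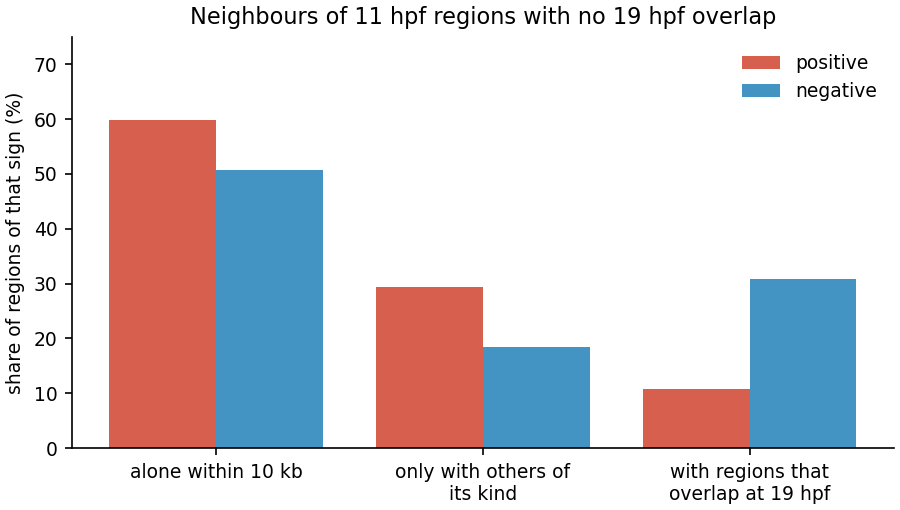
Share of positive and of negative 11 hpf-only regions (percent of the 1045 and 1208 regions of each sign) that stood alone within 10 kb in the 11 hpf list, lay only with others of their kind, or lay with recurrent regions. The last share is 10.7% for positive and 30.8% for negative regions.

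Many of these early groups had no 19 hpf region nearby at all. No 19 hpf region lay within 10 kb of 161 of the 222 groups of 11 hpf-only regions (72.5%). These 161 held 390 regions, 239 of them positive, while all 222 groups held 530 regions, 307 of them positive. The same held for 959 of the 1239 regions that stood alone (77.4%), 503 of them positive, against 626 of all 1239. The 309 groups with recurrent regions have a 19 hpf region by the rule and are left out of these shares. The counts include the 146 positive and 76 negative regions on scaffolds with no 19 hpf region. Where groups of positive 11 hpf-only regions, singles included, did have 19 hpf regions within 10 kb, these were all negative in 115 cases (147 regions) and all positive in 26 cases (29 regions). The 26 are 18.4% of these 141 groups (exact interval 12.4 to 25.8%). This is above the 9.39% of positive regions in the 19 hpf list, but that share counts regions and not groups. For positive 11 hpf-only regions far from any 19 hpf region, the closest one was positive in 15.2% at 10 to 50 kb and 17.8% at 50 kb or more. The 18.4% is near these far values, but the 141 groups leave out groups with recurrent regions or with 19 hpf regions of both signs. The share therefore cannot show whether positive 19 hpf regions were in excess close to positive 11 hpf-only regions. Negative groups had 19 hpf regions that were all positive in 12 cases (13 regions).

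Region numbers give a finer view of these neighbourhoods if each list numbers its wider set of regions in order along the scaffolds, as they were read here. On this reading, which the sources do not state, consecutive numbers are neighbouring regions of the set with none between them. Of the 11 hpf-only regions, 1721 had no 11 hpf-only region at either adjacent number, and 532 lay in 235 runs of 2 or more. Among these runs 109 were all positive, 119 all negative and 7 mixed. All 3 runs of 5 or more were positive. A recurrent region at the next number ends such a run. Counting any listed 11 hpf region, recurrent ones included, an adjacent number was listed for 28.8% of the positive and 36.3% of the negative 11 hpf-only regions, against 34.9% of the positive and 44.9% of the negative recurrent ones. Values varied within runs by a median of 0.54 on the log2 scale between the lowest and the highest region (quartiles 0.25 to 0.99).

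The longest run held 7 consecutive regions on Sc0000676, from 16343 to 40012, with log2 values of 1.21, 1.31, 1.47, 1.14, 1.57, 1.74 and 1.91 along the scaffold. All 7 lay under the median absolute value of the 11 hpf-only regions, and no 19 hpf region was listed on this scaffold. No region of either list lay beyond 40012 there, and the length of the scaffold is not known here. The next run, on Sc0000005 from 6391673 to 6398789, held 6 regions within 7.12 kb with values of 2.19, 1.62, 2.38, 1.59, 3.53 and 1.29. Its closest 19 hpf region was 90.9 kb away. A run of 5 on Sc0000012 (3276919 to 3287221) had values of 2.12, 1.79, 1.60, 1.74 and 1.67, with the closest 19 hpf region at 55.0 kb.

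The 4 runs of 4 were tied. They lay on Sc0000219 and Sc0000045, both positive, and on Sc0000001 (8738191 to 8746225), with values of 1.96, 2.68, 2.51 and 1.41, and on Sc0000006 (5370367 to 5374331), with -2.18, -1.70, -1.76 and -2.82. The run on Sc0000006 was the longest negative one, and its closest 19 hpf region was 14.5 kb away. The run on Sc0000045 (680871 to 687934) had values from 1.30 to 2.44, and that on Sc0000219 lay in the densest window. In these 7 runs every numbered region from the first to the last was listed with the same sign.

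The windows of 100 kb with the most 11 hpf-only regions were mainly positive. The window on Sc0000219 from 200001 to 300000 held 12 of them, all positive with log2 values from 1.23 to 3.59, beside 3 positive recurrent regions. Its strongest one, 3.59 (237041 to 237768), lay between recurrent regions of 2.89 (233402 to 234214) and 3.02 (239267 to 242251). A run of 4 further along (256610 to 260100) had lower values of 1.92, 1.45, 1.75 and 1.91. The 7 regions listed there at 19 hpf were all positive, from 2.06 to 3.01, and the closest lay 14.5 kb from that run.

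The window on Sc0000262 from 1 to 100000 held 8 positive 11 hpf-only regions and neither a recurrent nor a 19 hpf region. A pair of isolated regions had 2.33 and 1.69, and the other 6 lay in 2 groups of 3, with 2.40, 3.35 and 1.92 between 42658 and 46832, and 1.35, 2.52 and 2.43 between 65124 and 67448. On Sc0000235 (200001 to 300000) 5 positive regions of 2.16, 2.20, 2.27, 2.12 and 1.13 likewise had no 19 hpf region in the window. Another 4 positive regions, in a window without a 19 hpf region, lay on Sc0000242 (1 to 100000), with 2.33, 2.05, 1.78 and 2.08, and 4 more on Sc0000031 (2300001 to 2400000), with 1.30, 1.76, 2.37 and 1.52. For Sc0000242 this depends on the window's edge: within 10 kb of the block lay a negative recurrent region (-2.72) that overlapped a negative 19 hpf region. Along with the window on Sc0000676, these windows led those with no 19 hpf region, but the last places were tied at 4. The window on Sc0000001 from 4900001 to 5000000 also held 4 and no 19 hpf region, 3 of them negative (down to -1.87) and 1 positive (2.16).

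The window on Sc0000005 from 6300001 to 6400000 held 7, the run of 6 described above and another positive region (6366534 to 6366761), with 1 positive 19 hpf region (2.06) at its other end. A window of both signs lay on Sc0000215 from 1 to 100000. It held 3 negative 11 hpf-only regions of -2.57, -3.33 and -2.24 between 71518 and 75217, and 5 positive ones of 2.28, 2.58, 2.69, 1.62 and 2.98 between 86186 and 96843. The negative regions had consecutive numbers, and the positive block began beyond them. Of the 7 regions listed there at 19 hpf, 6 were negative (-3.33 to -1.73), and all 6 lay at lower positions than both blocks, between 24383 and 58294. The only positive one (2.16) overlapped the recurrent region of the window (1.46).

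**Figure D5:**
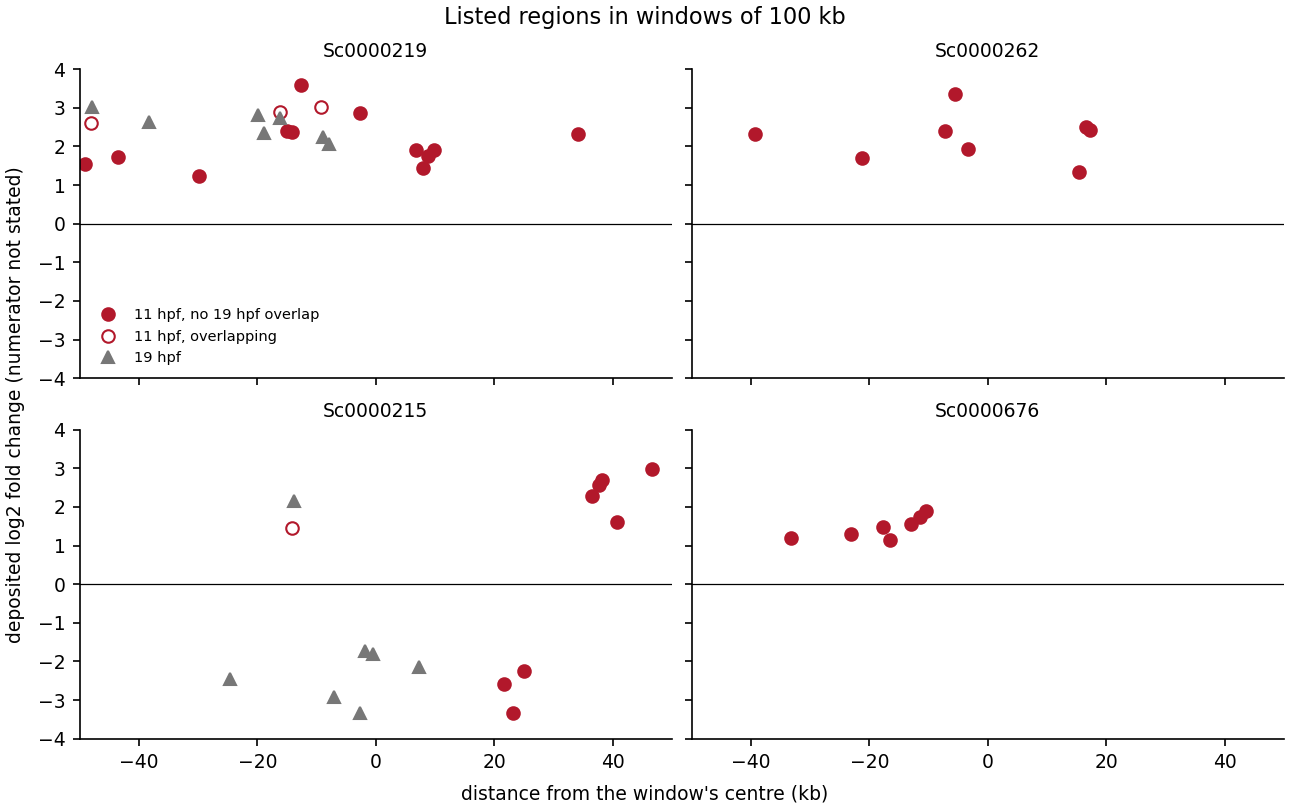
Listed regions in 4 of the windows of 100 kb that held the most 11 hpf-only regions, with the distance of each region's midpoint from the window's centre (kb) on the horizontal axis and its deposited log2 fold change on the vertical axis. Filled circles are 11 hpf-only regions, open circles recurrent regions and triangles 19 hpf regions. Sc0000262 and Sc0000676 hold no 19 hpf region, and Sc0000215 holds a negative and a positive block at 11 hpf. On Sc0000676 no region of either list lies beyond position 40012.

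Over all windows of 100 kb with at least 3 of the 11 hpf-only regions, 106 of 160, or 66.3%, held them in 1 sign, 52 positive and 54 negative. No 19 hpf region lay in 23 of the 160, of which 9 were all positive and 7 all negative. A locus on Sc0000001, picked after its values were seen, had 6 positive 11 hpf-only regions from 8994030 to 9004178 with values of 1.73, 2.61, 2.33, 1.54, 1.63 and 1.79. The 19 hpf regions within 10 kb were a pair on one side (-5.07 and -2.44, 8985061 to 8987738) and 1 on the other (-2.01, 9005143 to 9005578).

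Read in the same way, the 19 hpf numbers also tell whether the later set could hold an unlisted region where an early one lay. For 1653 of the 11 hpf-only regions there was a listed 19 hpf region on both sides on the same scaffold. Between these, at least 1 unlisted 19 hpf number was left for 1611 regions, or 97.5%, with a median of 14 numbers (quartiles 6 to 28). For 42 regions none was left, so that on this reading the numbered 19 hpf set held no region in that gap. They were 40 of the 956 negative regions with a listed 19 hpf region on both sides (4.18%) and 2 of the 697 positive ones (0.287%). The 42 had a median width of 250.5 bp and lay at a median of 604 bp from a 19 hpf region. This distance was 599.5 bp for the 40 negative and 8255.5 bp for the 2 positive ones. Only a region that fits between neighbouring 19 hpf regions can be counted here, so width and distance are not independent of the choice. The most negative region, on Sc0000157, was among the 42. The numbers do not say where in a gap the unlisted regions lie, so how many 11 hpf-only sites were still in the 19 hpf set was not determined.

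The share listed only at 11 hpf varied between scaffolds. Many scaffolds held few regions, and this spread was not compared with counting error. On the 93 scaffolds with at least 10 regions at 11 hpf, the share listed only at 11 hpf had a median of 53.8% (quartiles 45.5 to 63.6%, range 21.4 to 90.9%). The lowest was Sc0000141 with 3 of 14 and the highest were Sc0000033 and Sc0000123 with 10 of 11 each. Sc0000033 also held 34 regions at 19 hpf, so a high share did not need a scaffold that was empty at 19 hpf. Among the 11 hpf-only regions of a scaffold, the positive share had a median of 40% (quartiles 24 to 50%).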

How the data were processed

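Per the labels, ATAC-seq was made from 8 libraries of ectodermal explants, 2 for each treatment and time. BWA and DESeq2 are named, without versions, per the submitters' processing notes. Build, peak caller, threshold and pooling are not given in the sources. For each time the authors deposited a list of differential regions with 1 signed value each, read as a log2 fold change because values of both signs lie away from 0; no base of the logarithm is given. No depth or value per library was used, so depth is unknown and no test between libraries was made.

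Positions are 1-based. Overlap of 1 bp, gaps, groups within 10 kb, runs of numbers and windows of 100 kb were computed in Python 3.11.15 with pandas 2.3.3 and scipy 1.17.1, and the functions were checked on simulated lists. Intervals are exact Clopper-Pearson and cover counting error only. The named regions are the 6 of largest absolute log2 in each sign, the 5 windows with the most 11 hpf-only regions and the 5 such with no 19 hpf region, the 5 longest runs with those tied, those nearest the overlap rule on either side (5 each) and the 3 widest. The regions and the rules were chosen with earlier results of these data known. Alternatives varied the overlap rule, minimum size, merging, scaffolds, distances and means. No gene or sequence was assigned, since the gene table used here is of another assembly.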

Additional observations from a re-analysis of the deposited data

How the results depend on the processing

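No paired analysis was possible because the lists give 1 value per region and none per library, and for the same reason no replicate was left out. Of 78 recomputed values 29 stayed within the main interval (or within 1.5 times the main number) and 49 moved. The positive regions became the majority under 1 setting, the exclusion of 19 hpf regions within 5 kb.

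With 19 hpf regions within 500 bp also excluded, 35.1% of regions lay within 10 kb of a 19 hpf region, 42.9% within 10 kb of another 11 hpf region, and 41.5% of negative 11 hpf regions were kept. Excluding them within 5 kb gave 53.2% positive, a median absolute log2 of 1.88 and a width of 606 bp. It gave 12.2% within 10 kb of a 19 hpf region, a limit its own construction sets, 65.1% of these with its sign, and 33.0% beside another 11 hpf region. The share with no 19 hpf number left was 0.288%, and 67.7% of positive and 27.6% of negative regions were kept. Requiring 50% of both regions for an overlap gave 41.2% positive, 1.96 on the log2 scale, 46.8% near a 19 hpf region, 84.0% with its sign and 47.5% beside another 11 hpf region, and kept 86.5% of positive and 57.3% of negative regions.

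An absolute log2 of at least 1.5 gave 43.7% positive, a median of 2.08, 503.5 bp and 42.9% beside another 11 hpf region. At 2 there were 1023 regions, 38.3% positive, with a median of 2.40 and 414 bp, 43.8% near a 19 hpf region, 87.1% with its sign, 37.6% beside another 11 hpf region and 4.10% with no number left; 80% of positive and 43.0% of negative regions were 11 hpf-only. Merging within 500 bp gave 598 bp and 39.9% beside another 11 hpf region. Scaffolds of over 1 Mb span held 1247 regions, 41.0% positive, with 1.99 on the log2 scale, 531 bp, 45.4% near a 19 hpf region and 48.8% beside another 11 hpf region. Means were 2.05 on the log2 scale and 704 bp. At 5 and 50 kb, 30.2% and 70.7% lay near a 19 hpf region, 82.5% and 66.2% with its sign, and 37.8% and 64.4% beside another 11 hpf region. The causes were not tested.

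In each of the 7 alternatives to the overlap rule, size, merging and scaffolds, the positive regions within 10 kb of a 19 hpf region shared its sign less often (27.5 to 46.5%) than the negative ones (92.0 to 98.8%). The same 19 hpf list, 90.6% negative and 9.39% positive, was used in each, so its make-up favours this order in every setting. This comparison by sign was added after the data were seen. Unknown depth limits every absence from the 19 hpf list: a region not listed there is not shown to be unchanged.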
